A study of Homo sapiens with 12 samples.

Results

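The ADAMTS proteases described here are 8 genes, ADAMTS1, ADAMTS3, ADAMTS5, ADAMTS6, ADAMTS9, ADAMTS10, ADAMTS12 and ADAMTS15, read by 20 of the 54613 tested probe sets of an expression array. A probe set is a group of short probes that reads 1 transcript region. Every probe set annotated to 1 of the 8 symbols was taken, and for each gene the one with the highest mean over the 12 arrays led. The genes were listed with earlier results of these arrays known, in which ADAMTS5 and ADAMTS1 had stood out in the comparisons that use the arrays with control siRNA and metastin-10. Their values in those comparisons, and in the interaction, are therefore a description. No p-value is printed for them there, and their calls are counted only beside the share of all probe sets called, with nothing read from them.

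Ishikawa cells, an established human line of endometrial adenocarcinoma origin, received an siRNA for 48 h and then a peptide for 24 h. Metastin-10, also called kisspeptin-10, is a short peptide from the KISS1 product, its receptor GPR54 is encoded by KISS1R, and the design asked whether expression changes with the peptide pass through that receptor. There were 4 groups of 3 arrays, which the labels call biological replicates: GPR54-specific siRNA with 10 µM metastin-10, GPR54-specific siRNA with control peptide, negative control siRNA with 10 µM metastin-10, and negative control siRNA with control peptide. All arrays came from this 1 cell line and all cells were transfected, so there is no untransfected group, and the identity of the control peptide is not given in the sources used here.

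ADAMTS proteins are secreted zinc metalloproteinases that act in the extracellular matrix. They are made as inactive precursors, lose a prodomain to furin-type convertases, and carry thrombospondin repeats that help to bind them to matrix and cell surface. One branch of the family cleaves aggrecan, versican and related proteoglycans, another trims procollagens, and others act on fibrillin microfibrils or cartilage matrix proteins. Ovarian and endometrial tissue use the versican-cleaving members during tissue remodelling, and in the mouse ovary ADAMTS1 is induced around ovulation.

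The receptor transcript KISS1R, the target of the siRNA, went against the labels. It averaged 9.43 ± 0.16 with metastin-10 and 9.42 ± 0.05 with control peptide there (log2 RMA value, SD, n = 3 each), against 8.40 ± 0.04 with metastin-10 and 9.28 ± 0.13 with control peptide under control siRNA. With control peptide, the difference between the siRNA labels was 0.14 (log2, 95% interval -0.07 to 0.35). With metastin-10, KISS1R was 1.03 higher under the GPR54 label (adjusted p = 0.00039 in limma), and under control siRNA it was -0.88 with metastin-10 against control peptide (adjusted p = 0.0021 in limma). The only group with less of the target was thus the one labelled control siRNA with metastin-10. Both siRNA names below stand for the libraries so labelled, and whether labels were exchanged was not tested. All 8 epithelial and endometrial markers were bright (means of 7.81 to 13.99), as the label of the line implies. Of markers of other cell types, 3 of 7 stromal (up to COL1A1 at 9.84), 3 of 5 endothelial (up to VWF at 6.97), 3 of 4 smooth muscle (up to ACTA2 at 6.04) and 1 of 4 leukocyte markers (CD3E at 5.20) were above the table's median of 5.16. PTPRC, CDH5, KDR and LUM, at 3.48, 3.42, 3.05 and 2.56, were below it. The replicate 3 arrays of all 4 groups lay together at the low end of the largest axis of variation between arrays (-0.51 to -0.24). The next axis set apart the first pair of metastin-10 arrays under control siRNA (replicate 1 at 0.66 and replicate 2 at 0.46), while their replicate 3 was at -0.25.

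ADAMTS5, an aggrecanase best known from cartilage, was higher in the 3 arrays with control siRNA and metastin-10 than in all other 9 arrays. This was so at each of its 3 brighter probe sets, and this is also the group in which KISS1R was lowest, against its label. At the leading one (219935_at) the values were 7.89, 7.86 and 8.19 with control siRNA and metastin-10, against 7.05, 7.18 and 6.96 with control siRNA and control peptide. These groups did not overlap, and the mean difference of 0.91 ± 0.14 (log2, SE) is 1.88-fold. In such bulk samples, more cells with the transcript and more transcript per cell cannot be told apart. In the GPR54 siRNA-labelled arrays the same probe set gave 7.20, 7.11 and 6.68 with metastin-10, against 7.17, 7.01 and 6.92 with control peptide. Those groups overlapped, and both means (7.0 ± 0.28 and 7.03 ± 0.13) lay near that of control siRNA with control peptide (7.07 ± 0.11; SD, n = 3 each).

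**Figure D1:**
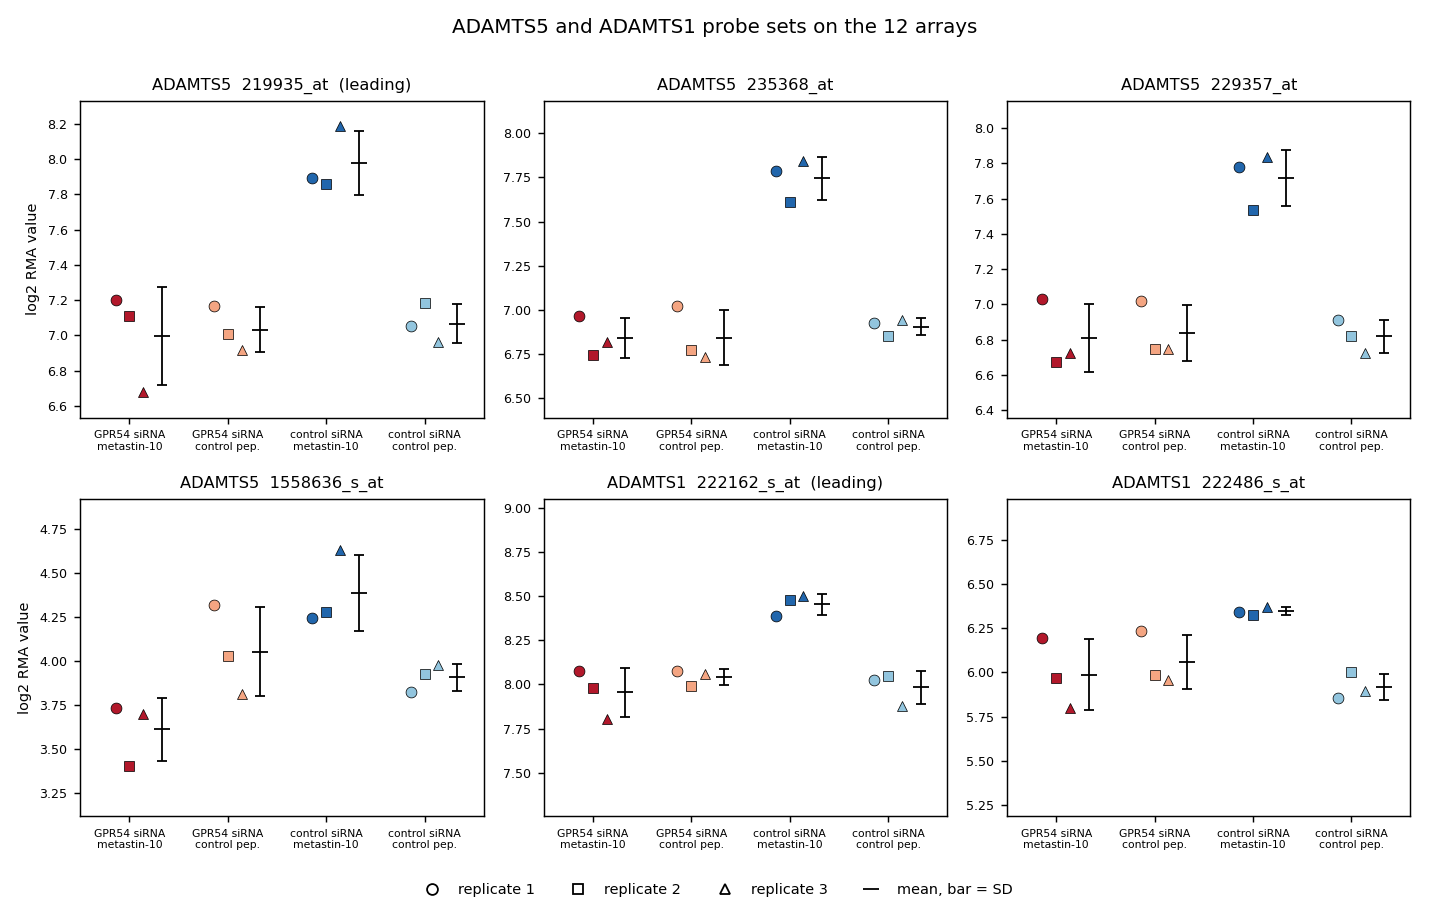
Log2 RMA values (y axis, a span of 1.8 in each panel) of the 4 ADAMTS5 and 2 ADAMTS1 probe sets in the 4 groups, named by their labels. Symbols are arrays, with a shape for each replicate number, and the bar beside them is the mean and SD of 3 arrays. In the 3 brighter ADAMTS5 panels the control siRNA, metastin-10 arrays sit at 7.54 or above, and all other arrays at 7.20 or below.

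The 2 other bright ADAMTS5 probe sets followed the leading one. The second brightest (235368_at) averaged 7.75 ± 0.12 with control siRNA and metastin-10, against 6.90 ± 0.05 with control siRNA and control peptide (SD, n = 3 each). The next (229357_at) averaged 7.72 ± 0.16 and 6.82 ± 0.09 in the same order of groups. Their differences of 0.84 ± 0.10 and 0.90 ± 0.12 (log2, SE) were close to that of the leading set. Over the 12 arrays the 3 brighter sets correlated pairwise at a Pearson r of 0.95 to 0.99, as a description over 4 groups of which 1 stands apart. The fourth (1558636_s_at) was dim, at a mean of 3.99, and gave 4.24, 4.28 and 4.63 with control siRNA and metastin-10, against 3.82, 3.93 and 3.98 with control siRNA and control peptide. Its difference was smaller, at 0.48 ± 0.14 (log2, SE). It followed the leading set less closely (r = 0.75, rho = 0.57 over 12 arrays), and replicate 1 labelled GPR54 siRNA with control peptide, at 4.32, exceeded 2 of its 3 control siRNA, metastin-10 arrays.

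The ADAMTS5 difference under control siRNA was also taken between same-numbered arrays. As these groups did not overlap, its sign was fixed for any pairing, and only its size is described. At the leading probe set it was 0.84, 0.67 and 1.22 for replicates 1, 2 and 3, at 235368_at 0.87, 0.76 and 0.90, and at 229357_at 0.87, 0.72 and 1.11. Replicate 3 gave the largest value at each of these 3 probe sets. That array did not lie apart from the rest on the axis where replicates 1 and 2 of its group did.

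ADAMTS5 signal with metastin-10 was lower under the GPR54 label than under control siRNA. This comparison shares its control siRNA, metastin-10 arrays with the one above, and its siRNA labels go against KISS1R. The leading set averaged 7.0 ± 0.28 in the GPR54 siRNA-labelled arrays, against 7.98 ± 0.18 under control siRNA (SD, n = 3 each). The difference was -0.98 ± 0.14 (log2, SE), or 1.97-fold lower. At the next 2 and the dim probe set it was -0.91 ± 0.10, -0.91 ± 0.12 and -0.77 ± 0.14. The ADAMTS5 groups did not overlap at any of the 4 probe sets in this comparison.

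ADAMTS1, which cleaves versican and aggrecan, was also highest in the arrays with control siRNA and metastin-10, by a smaller amount. Its leading probe set (222162_s_at) gave 8.39, 8.48 and 8.50 with control siRNA and metastin-10, against 8.03, 8.05 and 7.88 with control siRNA and control peptide. The groups did not overlap, and the difference was 0.47 ± 0.09 (log2, SE), or 1.39-fold. The second set (222486_s_at) gave 6.35, 6.33 and 6.37, against 5.85, 6.0 and 5.90 in the same groups, a difference of 0.43 ± 0.11. Between same-numbered arrays the leading set differed by 0.36, 0.43 and 0.62 for replicates 1, 2 and 3.

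In the GPR54 siRNA-labelled arrays, ADAMTS1 stayed near the level of control siRNA with control peptide. The leading set gave 8.08, 7.98 and 7.80 with metastin-10, against 8.07, 7.99 and 8.06 with control peptide. Replicate 3 with metastin-10 was the lowest of these 6 arrays. Under metastin-10 the GPR54 label differed from control siRNA by -0.50 ± 0.09 (log2, SE) at the leading set and -0.36 ± 0.11 at the second, and neither set overlapped between the groups. The probe set suffix in these names means that the probes may read more than 1 transcript, which the values cannot resolve.

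In the limma fit over all probe sets, 4 of the 20 ADAMTS probe sets were called higher with metastin-10 under control siRNA and none lower, at a Benjamini-Hochberg adjusted p under 0.05. They were the 3 brighter ADAMTS5 sets and the leading ADAMTS1 set. Among all probe sets 0.0421% were called higher and 0.386% lower. With metastin-10, 5 of the 20 were called lower between the GPR54 siRNA-labelled arrays and control siRNA, namely all 4 ADAMTS5 sets and the leading ADAMTS1 set, and none higher. Among all probe sets 0.0513% were called lower and 0.527% higher there. By the plain overlap of arrays, 7 of the 20 lay wholly above and 2 wholly below under control siRNA with metastin-10, against 7.91% and 8.72% of all probe sets. Between the siRNA labels with metastin-10, 6 lay wholly below and 2 wholly above, against 5.91% and 7.76%. Since the genes were listed for values in these contrasts, nothing is read from these counts. At 1 probe set per gene, 2 of the 8 genes were called in each contrast, against 0.607% and 1.04% of all 19775 genes. The ADAMTS1 call lay near the threshold: 13 of 21 alternative fits did not keep it under control siRNA, and 8 of 21 did not keep it between the siRNA labels. Among those 13 were the fits that left out any 1 of the 6 control siRNA arrays, GPR54-labelled replicate 2 with metastin-10, or any 1 of the 3 GPR54-labelled arrays with control peptide. Among those 8 were the fits without any 1 of the 3 control siRNA arrays with metastin-10, or without GPR54-labelled replicate 2 or 3 with metastin-10. The call of the leading ADAMTS5 set under control siRNA was lost without replicate 1 or without replicate 3 of control siRNA with control peptide.

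**Figure D2:**
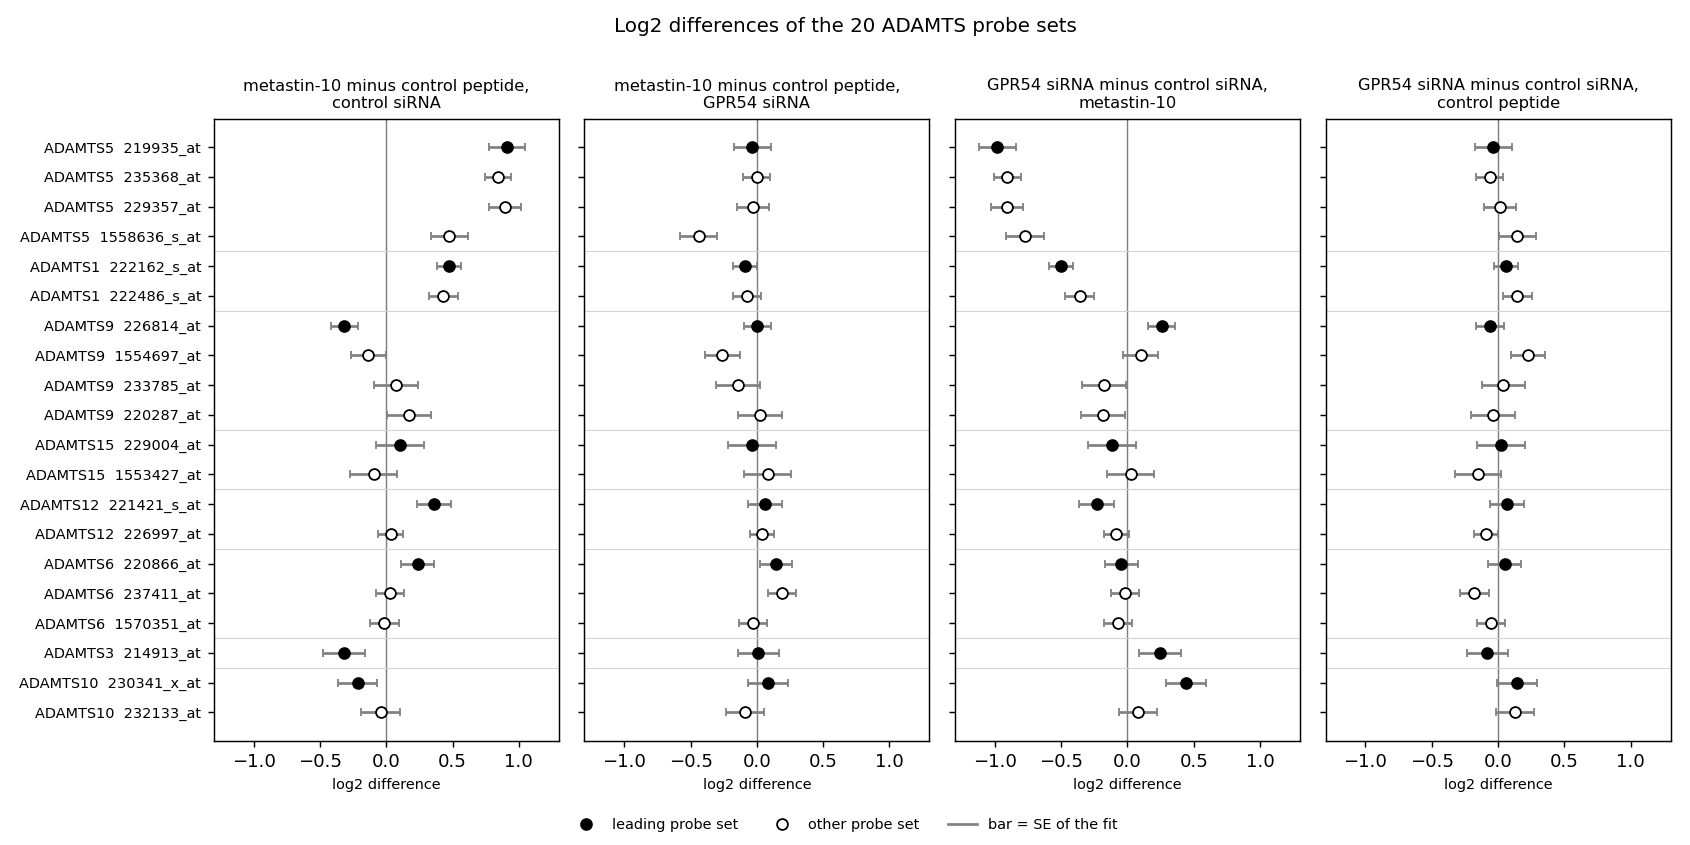
Log2 differences (x axis) of the 20 ADAMTS probe sets (rows, grouped by gene, brightest first) in 4 comparisons. Filled circles are leading probe sets, open circles the others, and bars are the SE of the fit over 12 arrays. The ADAMTS5 and ADAMTS1 rows lie right of 0 in the first panel and left of 0 in the third, and the leading sets lie between -0.09 and 0.14 in the second and between -0.08 and 0.14 in the fourth.

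Subtracting the metastin-10 difference under control siRNA from that under the GPR54 label gives the interaction, which was -0.95 ± 0.20 (log2, SE) at the leading ADAMTS5 set. It was -0.84 ± 0.14, -0.92 ± 0.17 and -0.92 ± 0.20 at the other ADAMTS5 sets and -0.56 ± 0.13 at the leading ADAMTS1 set. None of the 20 ADAMTS probe sets was called in the interaction by limma, where 0.0513% of all probe sets were, and 7 of the 20 had an unadjusted p under 0.05, against 6.09% of all probe sets. With the replicate number as a block, the ADAMTS5 sets at -0.84 and -0.92 (235368_at and 229357_at) were called, while the leading set was not. The genes were listed with the interaction known, so nothing is read from these counts.

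Under the GPR54 label no ADAMTS gene passed the threshold with metastin-10. Neither did any other of the 54613 probe sets, so nothing is read from this absence. The leading ADAMTS5 set differed by -0.04 (log2, 95% interval -0.33 to 0.26) and the leading ADAMTS1 set by -0.09 (-0.28 to 0.11), both at an adjusted p of 1.0 in limma. The dim ADAMTS5 set was the exception in size, with 3.73, 3.41 and 3.70 with metastin-10, against 4.32, 4.03 and 3.81 with control peptide. These groups did not overlap (-0.44, 95% interval -0.75 to -0.13, adjusted p = 1.0), and this was the 1 of 20 ADAMTS probe sets with an unadjusted p under 0.05, against 2.21% of all probe sets. It was also the only 1 of the 20 with groups apart in this direction, which 2.57% of all probe sets had, and 0% of all were called. The other 3 ADAMTS5 sets were at -0.04, -0.002 and -0.03, so the value was not shared by the brighter sets. The metastin-10 arrays of this comparison also enter a contrast on which the genes were listed.

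With control peptide, the siRNA label went with no ADAMTS difference past the threshold either. The leading ADAMTS5 set averaged 7.03 ± 0.13 in the GPR54 siRNA-labelled arrays, against 7.07 ± 0.11 under control siRNA (SD, n = 3 each), a difference of -0.04 (log2, 95% interval -0.33 to 0.26, adjusted p = 1.0 in limma). The leading ADAMTS1 set differed by 0.06 (-0.14 to 0.25). Over all 20 probe sets the differences ran from -0.18 to 0.22, and 0 had an unadjusted p under 0.05, while 0.0531% of all probe sets were called and 4.25% had an unadjusted p under 0.05. None of the 20 had groups without overlap, against 9.76% of all probe sets. With so few calls among all probe sets, nothing is read from the absence of calls here. The control siRNA, control peptide arrays of this comparison also enter a contrast on which the genes were listed.

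ADAMTS9 and ADAMTS15, which belong to the same proteoglycan-cleaving branch as ADAMTS1 and ADAMTS5, did not share their pattern. The leading ADAMTS9 set (226814_at) gave 6.92, 7.08 and 6.87 with control siRNA and metastin-10, against 7.35, 7.34 and 7.14 with control siRNA and control peptide. It thus lay in the other direction, without overlap of the groups, at -0.32 ± 0.10 (log2, SE), and was not called. With metastin-10 it was 0.26 ± 0.10 higher in the GPR54 siRNA-labelled arrays (7.30, 7.26 and 7.09). Its 3 dimmer sets were at -0.13, 0.07 and 0.17 under control siRNA, and the 4 sets correlated pairwise at an r of -0.51 to 0.41 over the 12 arrays, so they do not read 1 common pattern.

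The leading ADAMTS15 set (229004_at) was bright and did not follow the groups. It averaged 9.0 ± 0.24 and 9.04 ± 0.32 in the GPR54 siRNA-labelled arrays with metastin-10 and with control peptide, and 9.12 ± 0.13 and 9.02 ± 0.30 under control siRNA with metastin-10 and with control peptide (log2, SD, n = 3 each). Its differences were 0.10 ± 0.18 (log2, SE) with metastin-10 under control siRNA and -0.12 ± 0.18 between the siRNA labels with metastin-10. Replicate 3 was the lowest array of all 4 groups at this set, with a mean of 8.77 over the 4 replicate 3 arrays, against 9.18 over the other 8. The leading ADAMTS9 and ADAMTS3 sets also had replicate 3 lowest in all 4 groups, at 7.04 against 7.23 and at 4.76 against 5.06. Replicate 3 occurred once in each group, so it did not follow the comparisons.

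ADAMTS12, a protease of cartilage oligomeric matrix protein, had 1 probe set above and 1 at the control level. The leading set (221421_s_at) gave 5.58, 5.37 and 5.14 with control siRNA and metastin-10, against 5.04, 4.96 and 5.00 with control siRNA and control peptide. The groups did not overlap (0.36 ± 0.13, log2, SE), but the 3 metastin-10 arrays were spread out and the set was not called. The other set (226997_at), of nearly the same brightness, was at 0.03 ± 0.09. In the GPR54 siRNA-labelled arrays with metastin-10 the leading set gave 4.94, 5.05 and 5.39, of which replicate 3 reached the control siRNA, metastin-10 range.

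ADAMTS6 and ADAMTS10 are a related pair tied to fibrillin microfibrils, and variants of ADAMTS10 cause Weill-Marchesani syndrome in humans. The 3 ADAMTS6 sets were among the dimmest, with means of 2.92 to 3.52, and their differences with metastin-10 under control siRNA were -0.01, 0.03 and 0.24. The leading ADAMTS10 set (230341_x_at) gave 5.27, 5.03 and 5.23 with control siRNA and metastin-10, against 5.44, 5.31 and 5.43 with control siRNA and control peptide. It was at 5.94, 5.39 and 5.53 in the GPR54 siRNA-labelled arrays with metastin-10, which is 0.44 ± 0.15 (log2, SE) above control siRNA, with no overlap and no call. Replicate 1 was the highest array of both groups labelled GPR54 siRNA at this set. The second ADAMTS10 set was at -0.04 and 0.08 in these comparisons, and the suffix of the leading one marks probes that may bind other transcripts.

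ADAMTS3, a procollagen and VEGF-C processing protease, had 1 probe set (214913_at). It gave 4.66, 5.03 and 4.59 with control siRNA and metastin-10, against 5.22, 5.10 and 4.90 with control siRNA and control peptide, and the groups overlapped (-0.32 ± 0.16, log2, SE). With metastin-10 in the GPR54 siRNA-labelled arrays it ranged from 4.65 to 5.21.

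**Figure D3:**
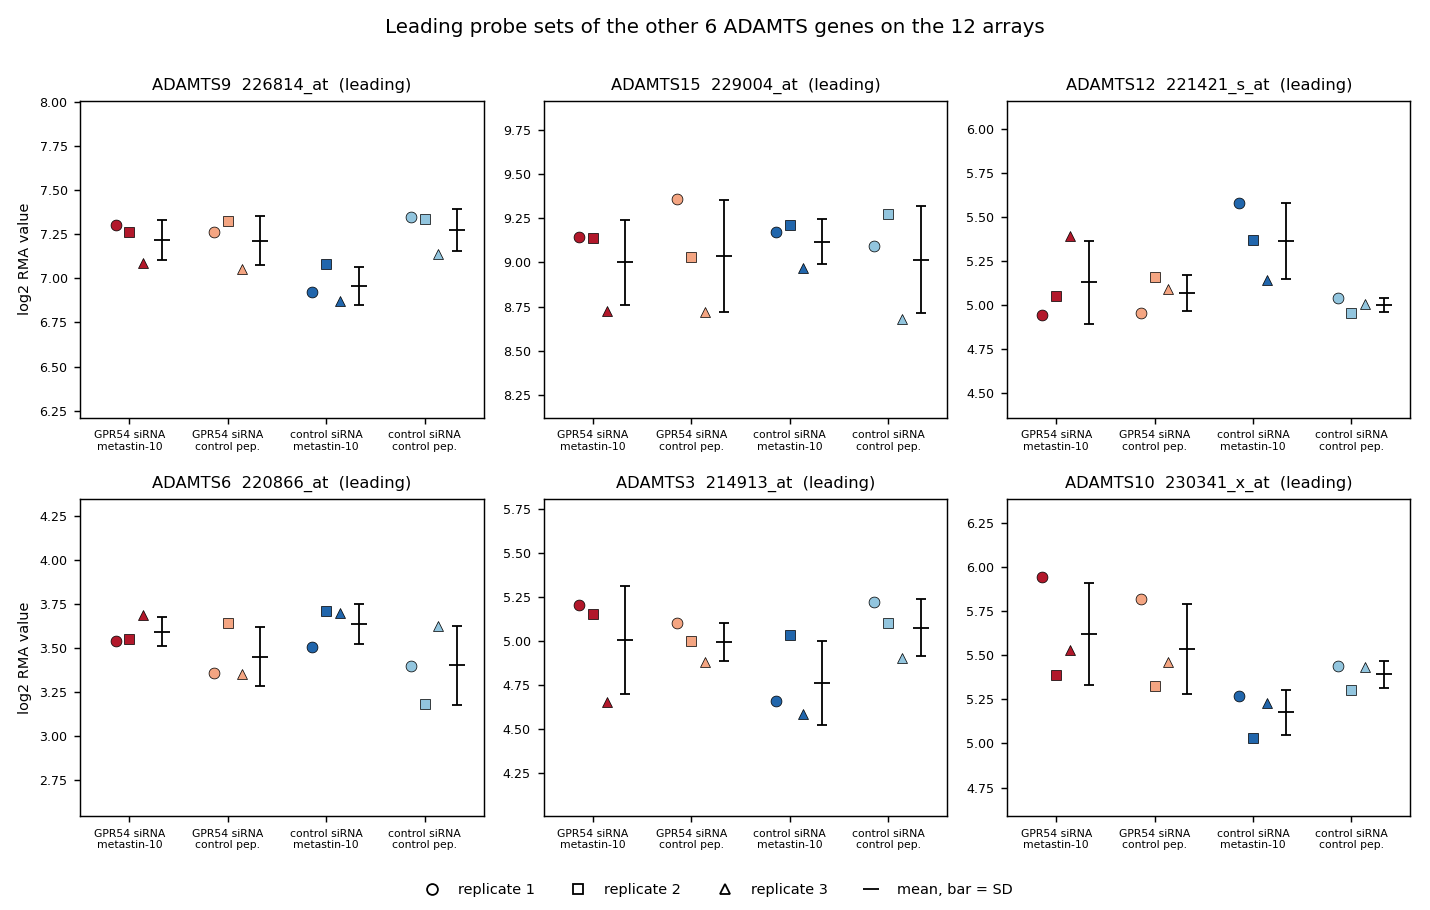
Log2 RMA values (y axis, a span of 1.8 in each panel) of the leading probe sets of ADAMTS9, ADAMTS15, ADAMTS12, ADAMTS6, ADAMTS3 and ADAMTS10 in the 4 groups, named by their labels. Symbols are arrays and the bar beside them is the mean and SD of 3 arrays. ADAMTS9 lies lower with control siRNA and metastin-10 (6.87 to 7.08), and replicate 3 (triangles) is lowest in every group for ADAMTS9, ADAMTS15 and ADAMTS3.

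Over these 6 genes no probe set was called in any of the 5 contrasts by limma. Nothing is read from this, since at most 0.527% of all probe sets were called in 1 direction of any contrast. Of the 14 probe sets of the 6 genes, 2 had an unadjusted p under 0.05 with metastin-10 under control siRNA and 2 between the siRNA labels with metastin-10, against 10.6% and 10.1% of all probe sets. Their 95% intervals reached 0.30 to each side in the median for the 4 pairwise contrasts and 0.42 for the interaction (log2 scale), which limits what could be resolved. Of the 20 ADAMTS probe sets, 9 had a mean above the table's median, and the 6 ADAMTS3, ADAMTS6 and ADAMTS12 sets were all below it. No detection calls were used here, so whether the dim sets lie above background is not known.

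ADAMTS1 and ADAMTS5 are neighbouring protein-coding genes on chromosome 21 in the GRCh38.p14 gene table. The leading sets of these genes correlated over the 12 arrays at a Pearson r of 0.97 and a Spearman rho of 0.85, again as a description with 1 group standing apart in both genes. Of the 3 coding genes listed on each side of the pair, 5 had a probe set. CYYR1, the nearest but dim at a mean of 3.10, was at 0.09 ± 0.09 (log2, SE) with metastin-10 under control siRNA. In the same contrast HEMK2 was at -0.05 ± 0.13, LTN1 at -0.14 ± 0.13, GABPA at -0.04 ± 0.26 and APP at -0.45 ± 0.17. None was called, and as 0.607% of all genes were, nothing is read from that. ADAMTS8 and ADAMTS15 are likewise neighbours, on chromosome 11, and their leading sets were both at 0.10 in that contrast.

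Among 19774 other genes, RAPGEF3, which encodes a cAMP-activated exchange factor, had the 12-array pattern most like that of ADAMTS5 (r = 0.97, rho = 0.97). ADAMTS1 was second, followed by PAPOLA (r = 0.95, rho = 0.80), NOP2 (0.95, 0.71) and TUBB2A (0.94, 0.90). The size differed among them. RAPGEF3 averaged 8.27 with control siRNA and metastin-10, against 7.78 with control siRNA and control peptide, while PAPOLA averaged 12.10 against 11.98. HLA-B (r = -0.95, rho = -0.76), HLA-C (-0.95, -0.71) and TUBA1A (-0.94, -0.77) had the most opposite patterns. ADAMTS5 was the gene most like ADAMTS1, followed by TUBB2A (r = 0.97, rho = 0.92), DNM3 (0.96, 0.84), KCNJ16 (0.94, 0.81) and SAMD4A (0.94, 0.82). The most opposite were SNHG32 (-0.94, -0.69), ING4 (-0.93, -0.71) and AGPAT2 (-0.93, -0.62). All these r values are a description over 4 groups of which 1 stands apart. ADAMTS5 and ADAMTS1 were listed with both known to stand out in the same arrays. Their high ranks with each other were favoured by that choice and are a description only.

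None of 61 measured relatives, substrates and modifiers of the ADAMTS proteases passed the threshold in any contrast by limma. They come from 7 lists of 62 genes, of which ADAMTS7 was not matched. Among all genes 0.607% were called with metastin-10 under control siRNA and 1.04% between the siRNA labels with metastin-10. In the interaction 19 of 19775 genes were called higher and 2 lower, and none was called in the other contrasts. At such shares nothing is read from the absence of calls among these 61. At an unadjusted p under 0.05 there were 5 (8.2%) with metastin-10 under control siRNA, against 11.9% of all genes. There were 7 (11.5%) between the siRNA labels with metastin-10, against 13.1% of all genes.

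The other ADAMTS proteases (10 of 11 measured) had a median difference of 0.11 with metastin-10 under control siRNA, against 0.01 over all genes, and 8 of the 10 lay above 0. With probe sets under the table's median left out, the all-gene median was -0.03, so it varied with brightness. The lists here and below were not matched to all genes for brightness. ADAMTS4, the aggrecanase most often named with ADAMTS5, was at 5.64 ± 0.09 with control siRNA and metastin-10, against 5.40 ± 0.14 with control siRNA and control peptide (0.24 ± 0.12, log2, SE, adjusted p = 0.51 in limma). The procollagen protease genes ADAMTS14 and ADAMTS2 were at 0.24 and 0.30. The 7 ADAMTS-like genes, which encode relatives without a protease domain, had a median of -0.08. ADAMTSL2 came nearest to the threshold among the 61 genes, at 4.47, 4.45 and 4.48 with control siRNA and metastin-10, against 4.13, 4.11 and 4.10 with control siRNA and control peptide (0.35 ± 0.09, adjusted p = 0.14 in limma). The groups of this dim probe set did not overlap. The 4 antisense and divergent RNAs of ADAMTS loci had a median of 0.25. ADAMTS9-AS2 was at 0.29 ± 0.13 at its leading set, which was dim at a mean of 4.36. Its other sets were at 0.03, 0.21, 0.23 and -0.03.

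The leading probe sets of the 9 proteoglycan and link protein genes lay above 0 with metastin-10 under control siRNA, at 0.02 to 0.25 with a median of 0.11. Over all 31 probe sets of these genes 25 lay above 0 and 6 below, while 10291 of all 19775 genes lay above 0. Aggrecan (ACAN) was at 0.25 ± 0.17 and versican (VCAN) at 0.11 ± 0.13 (log2, SE). The 15 other substrate genes had a median of -0.09. THBS1, which encodes the matrix protein thrombospondin, was at 6.77, 7.58 and 6.89 with control siRNA and metastin-10, against 6.33, 6.54 and 6.06 with control siRNA and control peptide. The groups did not overlap, yet replicate 2 stood well above the other metastin-10 arrays, and the difference of 0.77 ± 0.27 was not called (adjusted p = 0.32 in limma). COL2A1, a cartilage collagen gene, was at -0.47 ± 0.14 (adjusted p = 0.23 in limma).

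The 8 inhibitor and uptake genes had a median of -0.13 with metastin-10 under control siRNA. Of their leading sets 5 lay wholly below and 0 wholly above, against 2151 and 1725 of all 19775 genes, which was not tested. TIMP3, the main tissue inhibitor of ADAMTS5, was at 0.16 ± 0.13 (log2, SE), and LRP1, the receptor that takes up ADAMTS5, at -0.16. LRP2, a related endocytic receptor, was at -0.34 ± 0.13. The 8 genes for activation, folding and cell-surface partners had a median of -0.001, with FURIN at 0.03 and the syndecan gene SDC4 at -0.14.

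**Figure D4:**
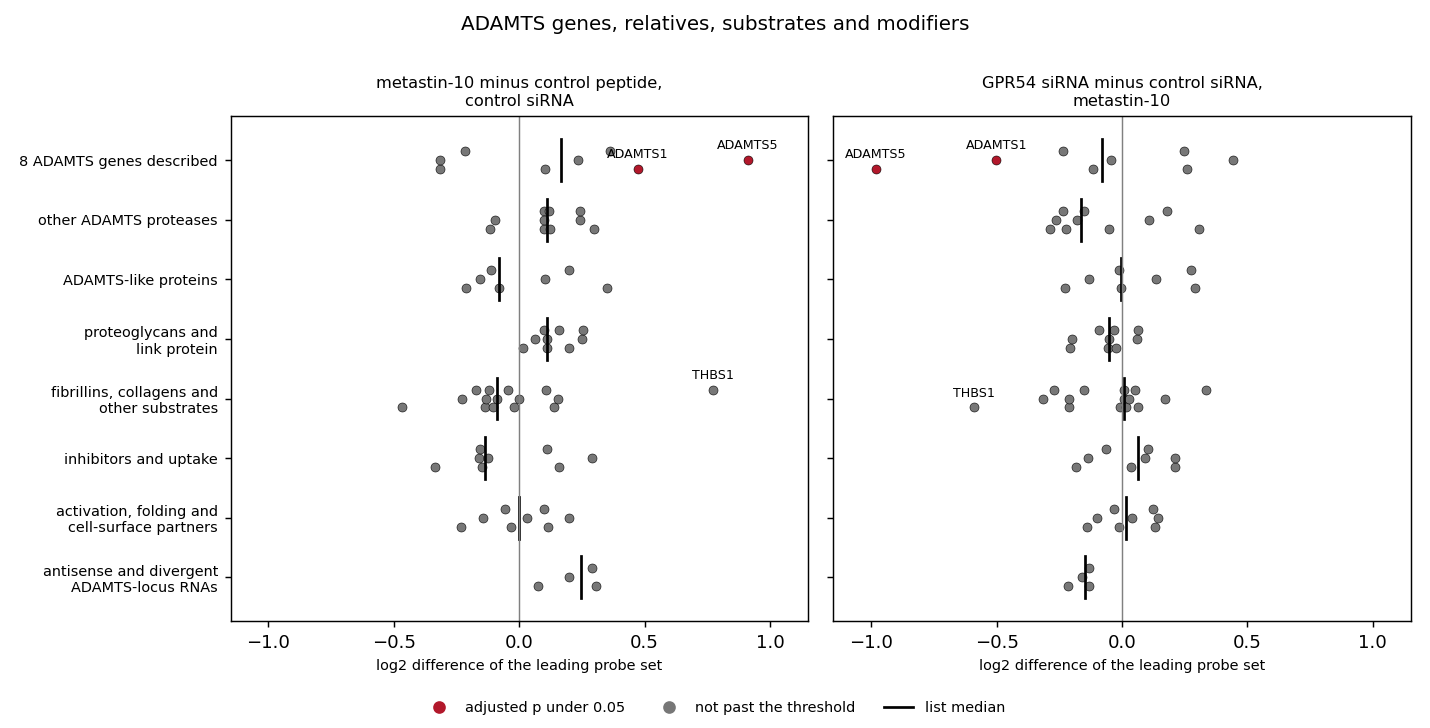
Log2 differences of the leading probe sets (x axis) of the 8 ADAMTS genes and of 7 related lists (rows) with metastin-10 under control siRNA (left) and between the siRNA labels with metastin-10 (right). Each point is a gene, red where its adjusted p is under 0.05, and the black bar is the list median. Nothing is read from the colour of the 8 genes, which were listed on these contrasts. ADAMTS5 and ADAMTS1 are the red points, at 0.91 and 0.47 on the left and -0.98 and -0.50 on the right, while THBS1 at 0.77 did not pass.

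Marker lists of other cell types differed by small amounts. Of these, only the smooth muscle list set the control siRNA, metastin-10 arrays apart from all others. The mean log2 value over the 4 smooth muscle markers was 5.63 to 5.68 in the arrays with control siRNA and metastin-10, against 5.47 to 5.56 with control siRNA and control peptide, and was 5.33 to 5.58 in the 6 GPR54 siRNA-labelled arrays. For the 4 leukocyte markers with a probe set it was 4.16 to 4.29 against 4.02 to 4.12, which overlapped the 3.99 to 4.27 of the GPR54 siRNA-labelled arrays. For the 5 endothelial markers it was 4.94 to 5.05 against 4.89 to 4.92, which overlapped the 4.79 to 5.04 of the GPR54 siRNA-labelled arrays. The 7 stromal fibroblast markers overlapped (5.28 to 5.40 against 5.30 to 5.41), and none of these 4 lists held a called gene. The 8 epithelial markers were at 11.50 to 11.58 against 11.68 to 11.75, and at 11.66 to 11.80 in the GPR54 siRNA-labelled arrays. Their mean was thus lower in the control siRNA, metastin-10 arrays than in all others. Of these 8 markers, 1 was called in this contrast and 2 between the siRNA labels with metastin-10, against 0.607% and 1.04% of all genes. The part of these marker lists in the ADAMTS5 and ADAMTS1 differences was not tested.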

How the data were processed

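Cells were profiled on Affymetrix U133 Plus 2.0 arrays. Expression values are log2 intensities after RMA (background correction, quantile normalization and summary over a set's probes), which the authors deposited in a single table. RMA is named in the submitters' processing notes (software version: not given in the sources used here). Quantile normalization removes shifts common to a whole array. Of 54675 probe sets, 62 controls were left out, and no filter on level was set. The platform annotation gave 41091 probe sets 1 gene. Another 1801 with several genes and 11721 without an entry stayed unnamed. Array medians ran from 5.13 to 5.22, and the number of arrays limits the precision. No array was a copy of another (smallest SD of a difference 0.15).

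A limma 3.58.1 model (R 4.3.3) with a mean for each of the 4 groups left 8 residual degrees of freedom, with empirical Bayes moderation, two-sided tests and Benjamini-Hochberg adjustment over 54613 probe sets at 0.05. It was tested on simulated data. Members, lists and tests were chosen with earlier results of these data known. Named are all members, list genes past the threshold or nearest to it, and the genes most alike over the arrays. ADAMTS2, ADAMTS4, ADAMTS8, ADAMTS14, ADAMTS9-AS2, TIMP3, LRP1, LRP2, FURIN, SDC4, VCAN, ACAN, THBS1, COL2A1 and the flanking genes were picked for role, position or size with their values in view. Alternatives were a replicate block, a batch term, fewer groups, array weights, a filter, other scalings, another moderation and left-out arrays.

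Replicate numbers come from the labels. Arrays that share a number deviated together (every correlation of deviations above 0.1) for metastin-10 and control peptide within either siRNA label (0.17 to 0.44 for control siRNA, 0.26 to 0.52 for GPR54 siRNA) and for both labels within control peptide (0.11 to 0.54). Within metastin-10 they did not (-0.15 to 0.26).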

Additional observations from a re-analysis of the deposited data

Results flagged for a closer look

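At 3 of the 20 ADAMTS probe sets, metastin-10 went with opposite signs under the 2 siRNA labels in all 3 same-numbered pairs of arrays. The share of all probe sets with such signs was not counted, so nothing is read from this number. The difference between the effects, the interaction, did not pass the threshold in limma for any of them. At the second ADAMTS1 set (222486_s_at) the pairs lay between -0.16 and -0.02 in the GPR54 siRNA-labelled arrays, against 0.32 to 0.49 under control siRNA, with an interaction of -0.50. The fitted difference of this set in the GPR54 siRNA-labelled arrays, at -0.07 ± 0.11 (log2, SE), was smaller than its SE. At the dim ADAMTS5 set (1558636_s_at) the pairs lay between -0.62 and -0.11, against 0.35 to 0.66, with an interaction of -0.92. At the leading ADAMTS10 set (230341_x_at) the order was turned, at 0.06 to 0.12 against -0.27 to -0.17, with an interaction of 0.30. Its pairs in the GPR54 siRNA-labelled arrays were smaller than the SE of 0.15 of that fitted difference. The genes were listed with these contrasts known.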

How the results depend on the processing

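The counts of called probe sets moved with the fit, and the leading ADAMTS values less so. In the order metastin-10 under control siRNA, siRNA labels with metastin-10, siRNA labels with control peptide and interaction, limma called 234, 316, 29 and 28 probe sets. The replicate block called 422, 504, 51 and 45, replicate 3 as a batch 532, 602, 87 and 73, array weights 495, 2016, 130 and 250, and trend with robust moderation 397, 525, 56 and 88. Fitting only the 2 groups compared gave 77, 57 and 9. Leaving out dim probe sets gave 597, 10 and 55 for the last 3, and a second quantile normalization 45 for the interaction. Leaving out 1 array at a time gave 71 to 263, 129 to 332, 3 to 44 and 6 to 32. Without replicate 3 of every group, chosen after seeing the data, 179, 396, 0 and 2 were called. With metastin-10 in the GPR54 siRNA-labelled arrays 0 were called in all of these fits, where 1206 had an unadjusted p under 0.05 in the fit reported.

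Of the 8 ADAMTS genes, 2 were called under control siRNA. That became 1 with only the 2 groups, with arrays centred on their medians and without replicate 3, and 0 to 2 with 1 array left out. Between the siRNA labels with metastin-10 the 2 became 0, 1 and 1 under the same settings, and 1 to 2 with 1 array left out. In the interaction 1 gene passed with array weights and with a second quantile normalization, instead of 0. The replicate block changed no ADAMTS gene's call at the leading probe set.

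No sign of a called ADAMTS difference turned round under these alternatives. The groups of the called sets did not overlap, so leaving out or weighting arrays could not turn a sign, and nothing is read from this. Only the size is described. The leading ADAMTS5 difference under control siRNA was 0.76 to 0.98 over these alternatives, and the leading ADAMTS1 difference 0.40 to 0.52. The other 6 ADAMTS genes had no call at their leading probe sets in any of these fits. The cause of these shifts was not tested.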
